A study of Mus musculus with 36 samples.

Results

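Transcripts of the guanylate-binding proteins and immunity-related GTPases were followed in the hippocampus of CKp25 and CK mice at 2 and 6 weeks after induction of p25. The genes asked for were Gbp2, Gbp3, Gbp5, Gbp6, Gbp7, Igtp, Irgm1, Irgm2 and Iigp1, matched by Ensembl ID to a table of 37991 gene rows. Of these 9 genes, 7 had a row, and all 7 passed the filter on low counts that left 14457 genes. No row carried the current ID of Gbp5 or Gbp6, so both are without a value here. CKp25 libraries came from 3-month-old female mice carrying both transgenes, which make p25, the shortened form of a Cdk5 kinase activator, in forebrain neurons under the CamkII promoter. CK libraries came from control littermates at the same times, whose own alleles the labels do not spell out. There were 12 libraries of stranded total RNA, 3 in each of the 4 groups, named by group, time and number. The labels do not say that each is 1 animal, so the p-values reflect library-to-library spread that may be technical only. The same age, 3 months, is given for all 4 groups. If it is the age at induction, age at collection goes with time and cannot be told apart from it. The labels name no batch.

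Both families are large or medium-sized GTPases that mouse cells make in response to interferons, above all interferon gamma, and that defend the cell's interior against bacteria and parasites living in vacuoles. Guanylate-binding proteins (Gbp genes) coat vacuole and bacterial membranes and help start inflammasome signalling. Among immunity-related GTPases, the regulators Irgm1, Irgm2 and Igtp (also called Irgm3) sit on the cell's own membranes and keep the effectors, such as Iigp1 (Irga6), in their inactive form until a foreign vacuole is met. In the brain, interferon-exposed microglia, astrocytes and endothelial cells are all known to make these transcripts.

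The promoter windows are shown because interferon acts on these genes through short DNA motifs. Windows run from 250 bases before to 50 bases after the start site in RefSeq (GRCm38.p6). A window was found for 7 of the 9 genes, the exceptions being Gbp6 and Iigp1, and Gbp3 had more than 1. The core of the interferon response element (GAAANNGAAA, either strand) lay in a window of all 7 genes, and the gamma-activated site (TTCNNNGAA, which reads the same on both strands) in those of Gbp5, Gbp7, Igtp and Irgm2. Over all 32851 mouse windows, 3.443% held the response element core, 8.298% the gamma-activated site and 0.4536% both. Capitals below mark the matches, 5′ to 3′ on the gene's strand. The Gbp7 window holds a pair of gamma-activated sites and then 1 response element core.
Gbp7, chr3:142530086-142530385, plus strand: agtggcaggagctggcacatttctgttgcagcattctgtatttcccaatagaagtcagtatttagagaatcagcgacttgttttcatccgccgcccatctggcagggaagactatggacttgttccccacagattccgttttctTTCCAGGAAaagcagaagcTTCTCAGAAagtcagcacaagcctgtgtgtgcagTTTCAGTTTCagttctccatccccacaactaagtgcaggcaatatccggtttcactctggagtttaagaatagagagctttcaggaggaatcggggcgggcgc
Irgm1 has a pair of response element cores that overlap, between 30 and 15 bases before its start, and no gamma-activated site in this window.
Irgm1, chr11:48871371-48871670, minus strand: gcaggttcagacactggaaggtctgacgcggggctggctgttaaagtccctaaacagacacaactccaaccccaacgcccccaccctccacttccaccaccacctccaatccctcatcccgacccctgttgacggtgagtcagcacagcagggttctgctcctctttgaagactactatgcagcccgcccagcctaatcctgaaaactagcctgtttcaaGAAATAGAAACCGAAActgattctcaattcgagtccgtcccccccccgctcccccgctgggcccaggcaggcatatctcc
Igtp and Irgm2, which lie next to each other, both have the gamma-activated site followed after 2 bases by the response element core.
Igtp, chr11:58199306-58199605, plus strand: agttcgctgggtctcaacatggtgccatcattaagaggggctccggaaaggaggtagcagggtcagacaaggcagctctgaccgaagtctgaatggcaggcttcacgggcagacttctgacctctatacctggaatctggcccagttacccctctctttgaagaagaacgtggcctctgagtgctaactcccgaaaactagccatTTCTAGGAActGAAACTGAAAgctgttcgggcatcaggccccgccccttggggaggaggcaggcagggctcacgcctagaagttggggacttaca
Irgm2, chr11:58214727-58215026, plus strand: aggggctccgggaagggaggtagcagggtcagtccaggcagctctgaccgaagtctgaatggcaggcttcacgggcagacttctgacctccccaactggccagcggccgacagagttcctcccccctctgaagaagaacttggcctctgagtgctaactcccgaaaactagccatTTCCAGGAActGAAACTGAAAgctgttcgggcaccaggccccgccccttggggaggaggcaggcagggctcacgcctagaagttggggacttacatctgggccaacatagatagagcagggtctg
That layout was noticed in these windows and then counted. It stood in 5 of the 32851 windows (0.01522%), and the 5 genes were Igtp, Irgm2, Tgtp1, Tgtp2 and Gm12185, all immunity-related GTPase genes. The Igtp and Irgm2 windows also share an unbroken run of 61 identical bases, so they are not independent sequences. Gbp2 had 1 response element core, 59 to 50 bases before its start, and Gbp3 a pair, between 45 and 30 bases before. A match is a description of letters and does not show that a factor binds there.

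All 7 measured genes were higher in CKp25 than in CK at both times by edgeR's quasi-likelihood test. At 2 weeks 11.6% of all tested genes were called higher and 7.99% lower, and at 6 weeks 18.1% higher and 15.2% lower. The median log2 fold change of the 7 genes was 3.87 at 2 weeks and 2.86 at 6 weeks, against -0.013 and 0.0033 over all genes tested. Levels are CPM, counts per 1000000 counts of a library total scaled by its trimmed mean of M-values (TMM) factor, and were not divided by transcript length, so levels of different genes are not compared. Hippocampal tissue was measured in bulk, so a change in the number of cells of a type and a change in RNA per cell cannot be told apart. The 12 microglia markers were also all called higher at both times, with a summed level of 804 to 1052 CPM in CKp25 and 257 to 280 CPM in CK at 2 weeks, and of 928 to 1193 CPM in CKp25 and 233 to 279 CPM in CK at 6 weeks.

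Among the guanylate-binding proteins, Gbp2 (ENSMUSG00000028270), which coats pathogen vacuoles, had 44.9, 43.0 and 60.8 CPM in the CKp25 libraries at 2 weeks, against 2.35, 3.89 and 4.06 CPM in CK. At 6 weeks it had 57.4, 29.3 and 43.8 CPM in CKp25, against 2.44, 6.88 and 5.24 CPM in CK. Values of a group are given in the order CKp25_2wk_4518, CKp25_2wk_4890 and CKp25_2wk_4894, then CK_2wk_4520, CK_2wk_4891 and CK_2wk_4893, and at 6 weeks CKp25_6wk_3937, CKp25_6wk_3940 and CKp25_6wk_4008, then CK_6wk_3936, CK_6wk_3938 and CK_6wk_4009. The lowest CKp25 library was well above the highest CK library at each time. Its log2 fold change was 3.87 ± 0.30 (SE; adjusted p = 6.59e-08) at 2 weeks and 3.14 ± 0.29 (adjusted p = 4.40e-07) at 6 weeks. Gbp3 (ENSMUSG00000028268), nearby on chromosome 3, had 50.0, 43.8 and 60.8 CPM in CKp25 and 3.86, 4.30 and 3.45 CPM in CK at 2 weeks. At 6 weeks Gbp3 had 59.4, 34.8 and 38.9 CPM in CKp25 and 3.46, 7.08 and 3.84 CPM in CK. Here too CKp25 and CK did not overlap, and CKp25_6wk_3937 was the highest of its group for both genes. The Gbp3 log2 fold change was 3.73 ± 0.25 (adjusted p = 1.27e-08) at 2 weeks and 3.21 ± 0.25 (adjusted p = 6.09e-08) at 6 weeks. Gbp7 (ENSMUSG00000040253), which in mice takes part in oxidative and autophagic killing of bacteria, had 65.6, 53.0 and 69.1 CPM in CKp25 and 5.37, 6.55 and 5.49 CPM in CK at 2 weeks. At 6 weeks Gbp7 had 49.8, 31.2 and 30.9 CPM in CKp25 and 5.49, 9.51 and 4.54 CPM in CK. All Gbp7 values in CKp25 were lower at 6 than at 2 weeks, yet none reached the CK range. Its log2 fold change was 3.44 ± 0.23 (adjusted p = 1.03e-08) at 2 weeks and 2.52 ± 0.23 (adjusted p = 5.32e-07) at 6 weeks.

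The regulatory GTPases were higher as well. Irgm1 (ENSMUSG00000046879), needed in mice for resistance to several intracellular microbes, had 72.0, 76.8 and 87.3 CPM in CKp25 and 5.70, 6.55 and 3.45 CPM in CK at 2 weeks. At 6 weeks Irgm1 had 63.2, 42.2 and 55.8 CPM in CKp25 and 7.12, 9.91 and 5.24 CPM in CK. No CKp25 library overlapped the CK range. Irgm1 had the smallest SE of the 7, with a log2 fold change of 3.90 ± 0.21 (adjusted p = 1.04e-09) at 2 weeks and 2.86 ± 0.20 (adjusted p = 2.59e-08) at 6 weeks. Igtp (ENSMUSG00000078853) had 24.6, 24.5 and 39.1 CPM in CKp25 and 2.51, 1.84 and 0.813 CPM in CK at 2 weeks, the last of these from 4 counts. At 6 weeks it had 22.8, 14.3 and 20.9 CPM in CKp25 and 4.88, 4.25 and 2.10 CPM in CK. The groups stayed apart, though 2 of the 3 CK libraries at 6 weeks lay above every CK library at 2 weeks. The Igtp log2 fold change was 4.04 ± 0.33 (adjusted p = 1.01e-07) at 2 weeks and 2.38 ± 0.30 (adjusted p = 1.58e-05) at 6 weeks. Irgm2 (ENSMUSG00000069874) had 17.5, 19.8 and 24.7 CPM in CKp25 and 3.35, 1.84 and 2.03 CPM in CK at 2 weeks. At 6 weeks it had 20.8, 11.4 and 17.6 CPM in CKp25 and 4.48, 5.06 and 1.75 CPM in CK. Irgm2 had the lowest fold of the 7 at both times, 3.06 ± 0.32 on the log2 scale at 2 weeks (adjusted p = 1.65e-06) and 2.16 ± 0.30 at 6 weeks (adjusted p = 4.28e-05).

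The effector Iigp1 (ENSMUSG00000054072), which loads onto parasite vacuoles and breaks them, had the highest fold of the 7 genes at both times. It had 57.3, 46.4 and 66.7 CPM in CKp25 and 2.51, 2.86 and 1.83 CPM in CK at 2 weeks. At 6 weeks Iigp1 had 34.2, 25.6 and 37.8 CPM in CKp25 and 2.64, 4.05 and 1.05 CPM in CK, without overlap. This was a 23.4-fold difference at 2 weeks (log2 4.55 ± 0.26, adjusted p = 2.30e-09) and a 12.8-fold difference at 6 weeks (log2 3.68 ± 0.28, adjusted p = 4.48e-08). For Irgm2, at the other end, the difference was 8.32-fold at 2 weeks and 4.46-fold at 6 weeks.

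**Figure D1:**
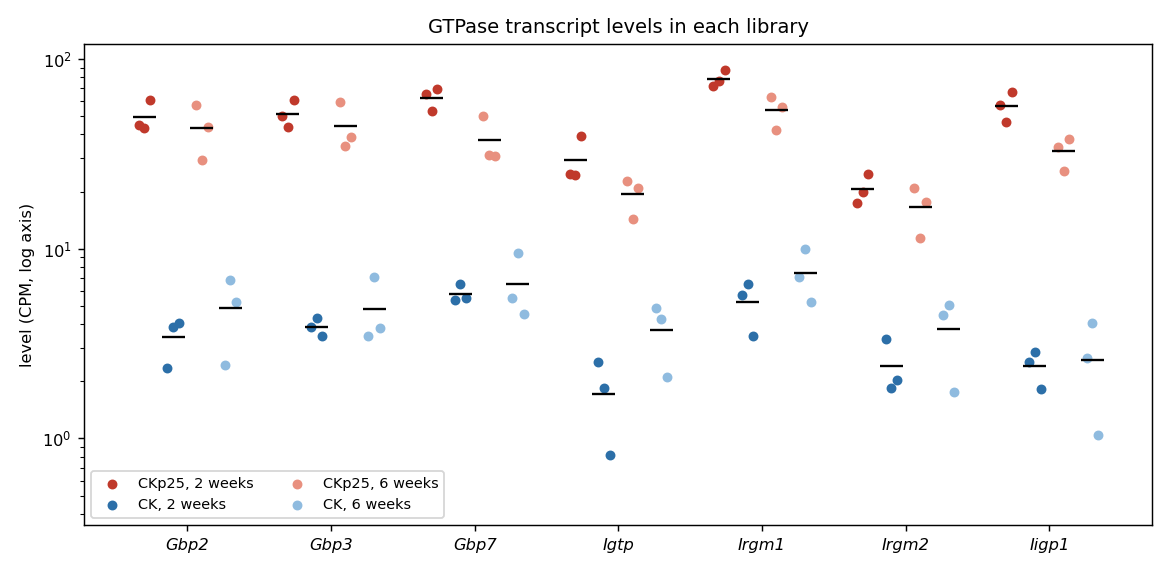
Level of each GTPase transcript (CPM, log axis), 1 point per library (3 per group), with a bar at each group mean. For all 7 genes the CKp25 libraries lie above every CK library of the same time, with Iigp1 farthest apart at 2 weeks (46.4 to 66.7 CPM in CKp25, 1.83 to 2.86 CPM in CK). The share of all tested genes set apart in this way was not counted.

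Except in CK at 2 weeks, libraries that were high for 1 of these genes tended to be high for the rest. In CK at 2 weeks, CK_2wk_4891 was highest for Gbp3, Gbp7, Irgm1 and Iigp1, CK_2wk_4520 for Igtp and Irgm2, and CK_2wk_4893 for Gbp2. Summed over the 7 genes, the level was 332, 307 and 408 CPM in CKp25 and 25.7, 27.8 and 21.1 CPM in CK at 2 weeks. At 6 weeks the sum was 308, 189 and 246 CPM in CKp25 and 30.5, 46.7 and 23.7 CPM in CK. CKp25_2wk_4894 was highest of its group for all 7 genes, and CKp25_6wk_3940 was lowest of its group for all but Gbp7. These libraries were also the highest and the lowest of their groups in summed microglia markers, at 1052 and 928 CPM. The lowest libraries of CKp25 at 2 weeks did not match. CKp25_2wk_4518 had the lowest microglia sum (804 CPM), and CKp25_2wk_4890 the lowest GTPase sum (307 CPM). In CK at 6 weeks the order differed: CK_6wk_3938 was highest for all but Igtp, with microglia markers at 244 CPM, whereas CK_6wk_4009 had the highest microglia sum, 279 CPM, and the lowest level of 5 of the 7 genes.

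The next question was whether the genes changed between 2 and 6 weeks. Within CKp25, 3 of the 7 were lower at 6 than at 2 weeks, against 5.53% of all genes called lower and 6.12% called higher. Iigp1 fell by 0.81 ± 0.17 on the log2 scale (adjusted p = 0.00586), Gbp7 by 0.76 ± 0.17 (adjusted p = 0.00911) and Irgm1 by 0.56 ± 0.15 (adjusted p = 0.0224). Igtp had a log2 difference of -0.61 ± 0.22 (adjusted p = 0.0873), Irgm2 of -0.32 ± 0.24 (adjusted p = 0.426), Gbp3 of -0.23 ± 0.18 (adjusted p = 0.459) and Gbp2 of -0.20 ± 0.21 (adjusted p = 0.602), none of them called. Igtp was called lower without the filter on low counts (-0.61, adjusted p = 0.00113). It was also called lower with the mean log2 CPM of choroid plexus markers as a covariate (-0.68, adjusted p = 0.0363). A further call came without CK_2wk_4520 and CKp25_2wk_4518 together (-0.75, adjusted p = 0.0487). Over the other refits the adjusted p of Igtp ran up to 0.381. The Gbp7 call was lost without CKp25_6wk_4008 (log2 -0.64), and that of Irgm1 without CKp25_2wk_4894 (-0.49), CKp25_6wk_3940 (-0.42) or CKp25_6wk_4008 (-0.59). Among 12 microglia markers within CKp25, Cx3cr1 was higher at 6 than at 2 weeks (0.47 ± 0.14), Tmem119 was lower (-0.40 ± 0.12) and the other 10 were not called. Their part in the difference was not tested.

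Within CK, none of the 7 genes was called between 6 and 2 weeks by edgeR, DESeq2 or limma, and 1 had an unadjusted p under 0.05. That was Igtp, with a log2 difference of 1.05 ± 0.46 (unadjusted p = 0.0365). Of all genes tested, 0% were called in CK by these 3 tools, and 560 had an unadjusted p under 0.05 in edgeR. The difference between the CKp25 effects at 6 and 2 weeks was negative for all 7 genes, from -0.52 ± 0.40 for Gbp3 to -1.66 ± 0.51 for Igtp, and was called for 0 of them by edgeR, against 0.18% of all genes called negative and 0.374% called positive. By DESeq2 2 of the 7 were called and by limma 0, and 3 had an unadjusted p under 0.05 in edgeR. Those 3 were Igtp, Irgm1 (-1.04 ± 0.32, adjusted p = 0.144) and Gbp7 (-0.91 ± 0.36, adjusted p = 0.251). The comparisons between times use the same CKp25 and CK libraries as those between genotypes.

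To ask whether the genes moved by more than the sum of the microglia markers did, the 12 markers' summed counts were set as the library size. On that scale the median of all tested genes is -1.8 at 2 weeks and -2.0 at 6 weeks. Of the 12 markers themselves, 3 were called higher and 4 lower on it at 2 weeks, and 2 higher and 3 lower at 6 weeks. A call is thus relative to the sum and not to each marker. At 2 weeks all 7 genes were higher relative to the markers, where 2.62% of all genes were and 93% were lower. Iigp1 was at 2.76 ± 0.28 (adjusted p = 1.05e-11), Igtp at 2.24 ± 0.31 (adjusted p = 2.04e-08) and Irgm2, the lowest, at 1.26 ± 0.30 (adjusted p = 0.000212). At 6 weeks 5 of the 7 were higher, where 1.65% of all genes were and 93.2% were lower. Iigp1 was at 1.67 ± 0.29 (adjusted p = 1.50e-06), Gbp3 at 1.17 ± 0.23 (adjusted p = 1.00e-05), Gbp2 at 1.12 ± 0.24 (adjusted p = 4.50e-05) and Irgm1 at 0.83 ± 0.22 (adjusted p = 0.000482). Gbp7 was just past the threshold, at 0.48 ± 0.23 (adjusted p = 0.0419). That call was lost without CKp25_6wk_3937 (0.36), CK_6wk_3936 (0.43) or CK_6wk_4009 (0.20). Igtp (0.35 ± 0.28, adjusted p = 0.227) and Irgm2 (0.12 ± 0.29, adjusted p = 0.689) were not called relative to the microglia markers. Whether these transcripts were in microglia was not tested.

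**Figure D2:**
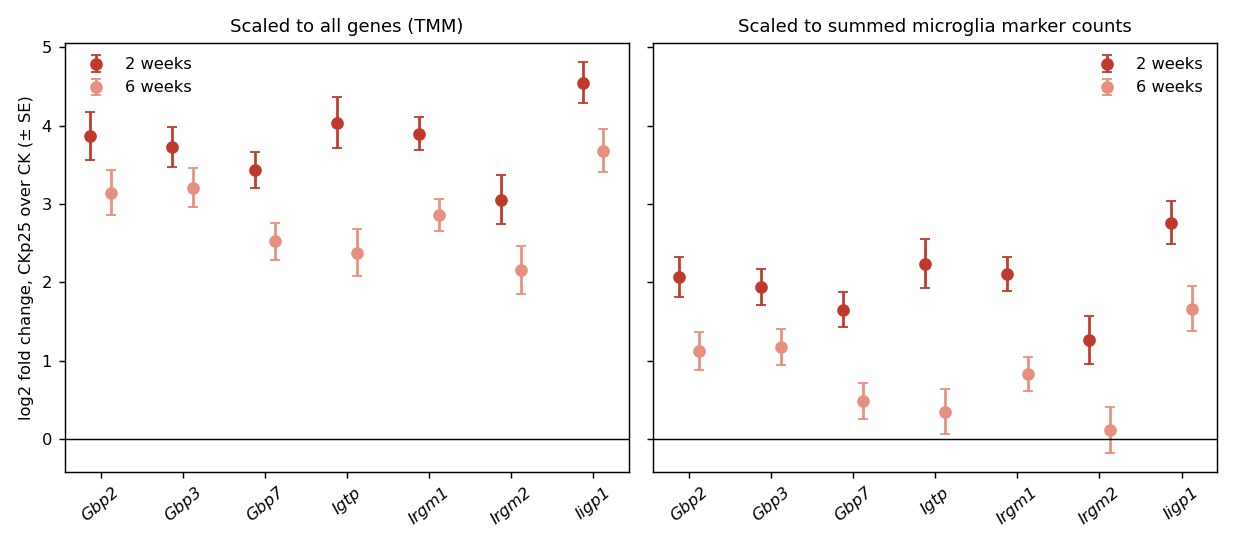
Log2 fold change of CKp25 over CK (± SE, 3 libraries per group) for the 7 genes at 2 and 6 weeks, scaled to all genes on the left and to the summed counts of 12 microglia markers on the right. On the right the 2-week values run from 1.26 to 2.76, and the 6-week values of Igtp (0.35) and Irgm2 (0.12) lie closest to 0.

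The make-up of the family's reads was set apart between the genotypes for some of the 7 genes and not for others. Iigp1 made up 16.2 ± 1.09% of the 7 genes' reads in CKp25 and 9.58 ± 0.842% in CK at 2 weeks (SD, n = 3 each). At 6 weeks its share was 13.4 ± 2.14% in CKp25 and 7.25 ± 2.45% in CK. The lowest CKp25 library had a larger Iigp1 share than the highest CK library at both times. Irgm2 went the other way, with 5.92 ± 0.603% in CKp25 and 9.77 ± 3.23% in CK at 2 weeks, and 6.66 ± 0.567% in CKp25 and 10.9 ± 3.66% in CK at 6 weeks. Gbp7 likewise had a smaller share, 18.0 ± 1.55% in CKp25 and 23.5 ± 2.52% in CK at 2 weeks, and 15.1 ± 2.20% in CKp25 and 19.2 ± 1.17% in CK at 6 weeks. Neither gene's shares overlapped between the genotypes, but the gap for Irgm2 was narrow. Its highest CKp25 and lowest CK shares were 6.46 and 6.62% at 2 weeks, and 7.17 and 7.35% at 6 weeks. Those CK shares rest on 9 Irgm2 reads at 2 weeks and 10 at 6 weeks. Irgm1 held 22.7 ± 2.00% in CKp25 and 20.7 ± 3.83% in CK at 2 weeks, and 21.9 ± 1.16% in CKp25 and 22.2 ± 1.07% in CK at 6 weeks, with overlap at both times. Gbp2 and Gbp3 shares also overlapped at both times. Igtp held 8.32 ± 1.11% in CKp25 and 6.76 ± 2.98% in CK at 2 weeks, with overlap. At 6 weeks Igtp held 7.84 ± 0.587% in CKp25 and 11.3 ± 4.07% in CK, without overlap. Shares are of reads and not of molecules, rest on 104 to 231 reads in a CK library, and are given with no test.

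**Figure D3:**
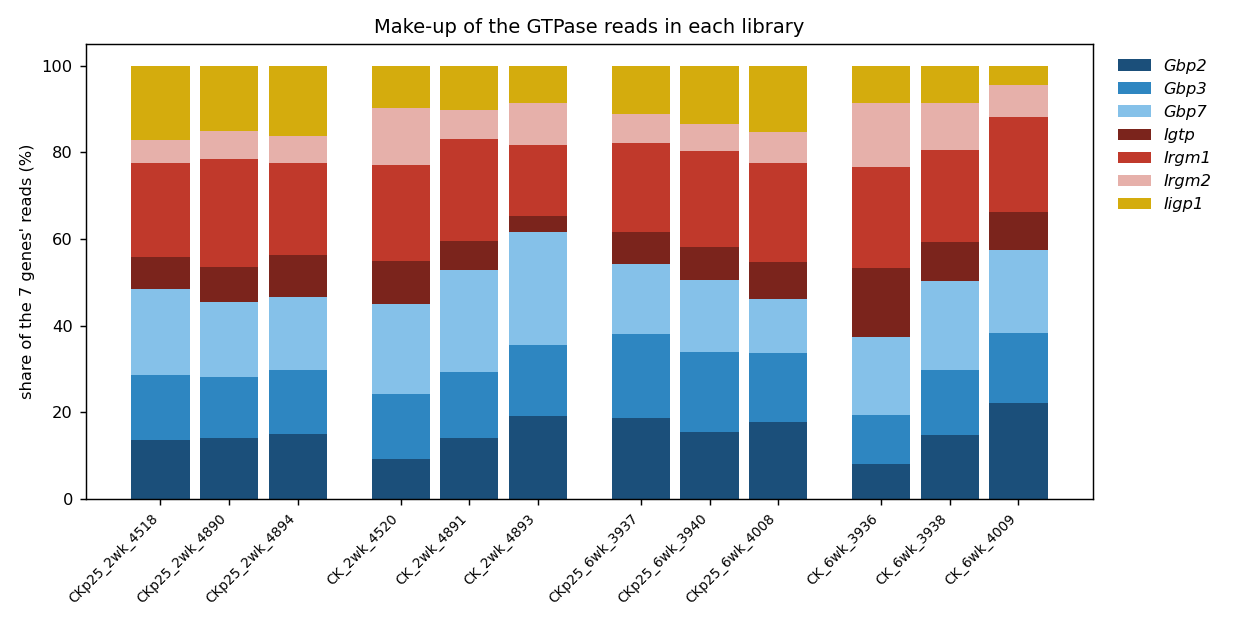
Share of each gene in the summed reads of the 7 GTPase genes, as percent, with 1 bar per library. The Iigp1 share at the top is 15.1 to 17.3% in CKp25 and 8.65 to 10.3% in CK at 2 weeks, and 11.1 to 15.4% in CKp25 and 4.41 to 8.67% in CK at 6 weeks.

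Most other genes of the same families were higher as well. Of 18 further family genes with a row, 14 were tested, and 12 were higher and 1 lower at 2 weeks, with 10 higher and 1 lower at 6 weeks. Their median log2 fold change was 2.46 at 2 weeks and 2.09 at 6 weeks. Several have close copies in the genome, and reads matching several places were not counted, so their counts are uncertain. The effectors Tgtp1 and Tgtp2 (both known as Irgb6) had log2 fold changes of 3.04 ± 0.64 (adjusted p = 0.00280) and 3.39 ± 0.44 (adjusted p = 2.40e-05) at 2 weeks. At 6 weeks Tgtp2 was at 2.13 ± 0.43 (adjusted p = 0.00101) and Tgtp1 missed the threshold at 1.37 ± 0.54 (adjusted p = 0.0618). The 6-week difference of Tgtp1 was called by DESeq2, without the filter, with the compared groups alone, with the choroid plexus covariate, without CK_2wk_4520 and CKp25_2wk_4518 together, and without CK_2wk_4520, CK_2wk_4893, CKp25_6wk_3940 or CK_6wk_3938 alone, its adjusted p running between 0.00128 and 0.219 over all refits. Its 2-week log2 fold change ran between 2.51 and 5.27 with a library left out, the highest without CK_2wk_4520, and was called each time. Gm12250 (Irgb10), which in mice helps Gbp proteins break open bacteria, was 3.87 ± 0.48 higher at 2 weeks (adjusted p = 1.37e-05) and 2.15 ± 0.48 at 6 weeks (adjusted p = 0.00240). F830016B08Rik, next to Iigp1 on chromosome 18, was at 4.88 ± 0.38 at 2 weeks and 3.54 ± 0.32 at 6 weeks. Gm4951 had 230 counts in CKp25 and 2 in CK at 2 weeks, and 188 in CKp25 and 5 in CK at 6 weeks.

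Within the Gbp family, Gbp2b, between Gbp3 and Gbp2 on the chromosome, was 2.45 ± 0.28 higher at 2 weeks and 1.81 ± 0.27 at 6 weeks (adjusted p = 5.58e-06 and 7.20e-05). Gbp9 was 2.01 ± 0.25 higher at 2 weeks and 2.23 ± 0.25 at 6 weeks. Gbp4 was called at 2 weeks (1.70 ± 0.48, adjusted p = 0.0180) and not at 6 weeks (0.50 ± 0.45, adjusted p = 0.432). At 6 weeks Gbp4 had 9.80, 6.44 and 8.55 CPM in CKp25 and 3.66, 12.3 and 1.75 CPM in CK, so the groups overlapped through CK_6wk_3938. Without that library its log2 fold change was 1.62 and was called, and at 2 weeks its call was lost without CKp25_2wk_4894 (1.54), CK_2wk_4891 (1.71) or CK_2wk_4893 (1.41). The remaining genes of the family list are not Gbp genes. Of these, Gm5431 was higher at both times (2.94 ± 0.44 and 2.52 ± 0.45 at 2 and 6 weeks). So were 9930111J21Rik1 (2.46 ± 0.32 and 2.48 ± 0.30) and 9930111J21Rik2 (1.92 ± 0.24 and 2.06 ± 0.24). Gm4070 was called at 2 weeks (1.57 ± 0.46) and 6 weeks (1.60 ± 0.46), and each call was lost without any of 3 single libraries: CKp25_2wk_4518 (1.32), CKp25_2wk_4894 (1.55) or CK_2wk_4893 (1.27) at 2 weeks, and CKp25_6wk_4008 (1.41), CK_6wk_3936 (1.35) or CK_6wk_4009 (1.19) at 6 weeks. Without CK_6wk_3938 the Gm4070 value at 6 weeks was 2.56. Gvin1, a very large interferon-inducible GTPase, was called at neither time (1.17 ± 0.70 and 0.25 ± 0.86 at 2 and 6 weeks), but was called at 2 weeks without CK_2wk_4520, at 3.50. The divergent member Irgq was lower, with a log2 fold change of -0.39 ± 0.10 at 2 weeks (adjusted p = 0.0101) and -0.32 ± 0.10 at 6 weeks (adjusted p = 0.0201), a call lost without CKp25_2wk_4894 (-0.32) at 2 weeks and without CKp25_6wk_3937 (-0.20) or CK_6wk_3938 (-0.28) at 6 weeks. With the share of reads that aligned to several places as a covariate, a share that was higher in CKp25 than in CK at 6 weeks, the Irgq call at 6 weeks was also lost (-0.30, adjusted p = 0.0852).

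The genes that flank the clusters were compared, a step added after the data were seen. Flanking here means the nearest protein-coding gene absent from the family list used, so such a gene may itself be a family gene. On chromosome 3, where Gbp5, Gbp7, Gbp3, Gbp2b and Gbp2 follow each other, the flanking gene Kyat3 was not called at either time (-0.29 ± 0.37 and 0.68 ± 0.35 at 2 and 6 weeks). On the other side, Pdlim5 was 0.38 ± 0.16 at 2 weeks (not called) and 0.65 ± 0.16 higher at 6 weeks (adjusted p = 0.00469). On chromosome 11, Mrpl22, beside the Gm12250, Igtp and Irgm2 cluster, was not called at either time (0.15 ± 0.19 and 0.16 ± 0.19). Beside Irgm1, Trim7 was higher at 2 weeks (1.42 ± 0.28, adjusted p = 0.00164) and not called at 6 weeks (-0.033 ± 0.30), and Psme2b, beyond the neighbouring family genes, was higher at both (0.96 ± 0.30 and 1.16 ± 0.30). Lrrc8b, next to Gbp6, was not called (-0.069 ± 0.10 and -0.15 ± 0.11), nor was Smim3, next to Iigp1 (0.56 ± 0.20 and 0.36 ± 0.19). Gm4841, on the other side of Iigp1 and F830016B08Rik, had 61 counts in CKp25 and 1 in CK at 2 weeks, and 25 in CKp25 and 2 in CK at 6 weeks. It was not in the family list but may belong to the family, so it may not mark the edge of that cluster. Abcg3 and 4930438A08Rik, the flanking genes left, had too few counts to be tested. Each tested flanking gene except Gm4841 had a smaller log2 difference than the lowest of the 7 GTPases at the same time.

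**Figure D4:**
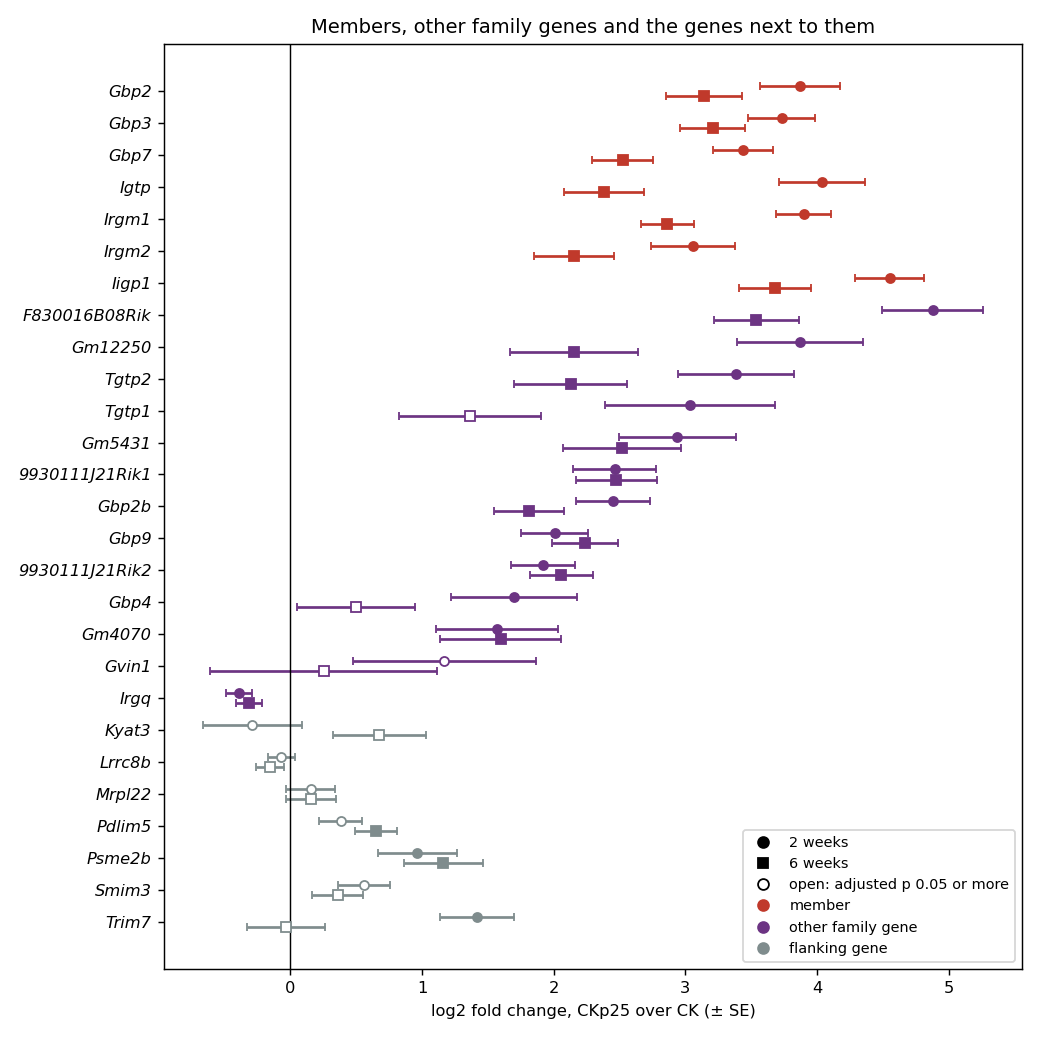
Log2 fold change of CKp25 over CK (± SE, 3 libraries per group) at 2 weeks (circles) and 6 weeks (squares) for the 7 members, the other tested family genes and the genes flanking their clusters. Open symbols were not called. Gm4951 and Gm4841 are left out because the 3 CK libraries together held 3 counts or fewer at 1 or both times. The members lie between 2.16 and 4.55 and the flanking genes between -0.29 and 1.42.

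Genes above the GTPases in the interferon pathway were read next. Ifng, the gene for interferon gamma, had 0 counts in all 12 libraries, which allows a level of up to 0.163 CPM in CKp25 and 0.190 CPM in CK at 2 weeks, and 0.180 CPM in CKp25 and 0.192 CPM in CK at 6 weeks (3 counts over a group, counting error alone). Ifnb1, for interferon beta, had 2 counts in CKp25 and 0 in CK at 2 weeks, and 0 in either at 6 weeks. None of the 8 interferon genes with a row had enough counts to be tested. T and NK cells are known producers of interferon gamma. Of 16 of their markers only Thy1, which neurons also express, was tested. The other 15 summed to 2.12 to 4.23 CPM in CKp25 and 1.83 to 2.68 CPM in CK at 2 weeks, and to 3.54 to 8.60 CPM in CKp25 and 0.607 to 2.03 CPM in CK at 6 weeks. Of the 16, 4 were at 0 in every CKp25 library and 7 in every CK library at 2 weeks, and 1 in every CKp25 library and 10 in every CK library at 6 weeks. Cd3e, part of the T cell receptor complex, was the one at 0 in CKp25 at 6 weeks, and it was at 0 in CK then as well. The part of such cells in the result was not tested.

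Most receptors and their kinases were not called. At 2 weeks 1 of 7 was higher (Ifnar2, 0.57 ± 0.16, adjusted p = 0.0158). At 6 weeks 2 of 7 were higher, Ifnar2 (0.85 ± 0.16, adjusted p = 0.000474) and Ifngr1, which binds interferon gamma (1.37 ± 0.19, adjusted p = 3.28e-05). The share of all tested genes called higher was 11.6% at 2 weeks and 18.1% at 6 weeks. Ifngr1 had 14.2 ± 2.33 CPM in CKp25 and 9.56 ± 1.36 CPM in CK at 2 weeks, and 25.8 ± 2.51 CPM in CKp25 and 9.88 ± 3.06 CPM in CK at 6 weeks (SD, n = 3 each). Its level within CKp25 was higher at 6 than at 2 weeks (0.87 ± 0.18, adjusted p = 0.00409), the opposite direction to Gbp7, Irgm1 and Iigp1. Ifngr2, Ifnar1, Jak1 and Jak2 were called at neither time, with log2 fold changes between -0.22 and 0.22.

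Transcription factors and coactivators of the interferon response were higher in all 8 tested cases at both times. Irf1, which binds the response element, had 21.9 ± 2.36 CPM in CKp25 and 6.38 ± 0.401 CPM in CK at 2 weeks, and 14.2 ± 3.93 CPM in CKp25 and 6.49 ± 1.28 CPM in CK at 6 weeks. Within CKp25, Irf1 was lower at 6 than at 2 weeks, with a log2 difference of -0.64 ± 0.18 (adjusted p = 0.0256). Irf8, a factor of microglia and other myeloid cells, was 3.15 ± 0.26 higher at 2 weeks and 3.39 ± 0.27 at 6 weeks, and Irf9, a DNA-binding factor of the type I response, 2.50 ± 0.17 and 2.10 ± 0.17. Nlrc5, the activator of MHC class I genes, was 4.15 ± 0.31 and 3.24 ± 0.31 higher. Ciita, the activator of MHC class II genes and a classical gamma-responsive gene, had 25 counts in CKp25 and 0 in CK at 2 weeks, and 28 in CKp25 and 2 in CK at 6 weeks.

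Inhibitors of interferon signalling were higher in 4 of 7 cases at 2 weeks and 5 of 7 at 6 weeks. Socs1, which blocks the receptor kinases, was 2.73 ± 0.59 higher at 2 weeks (adjusted p = 0.00325) and 1.84 ± 0.67 at 6 weeks (adjusted p = 0.0445). Usp18, which blocks the type I receptor, was 5.53 ± 0.39 and 4.47 ± 0.39 higher. Of 8 other interferon gamma targets tested, 5 were higher at 2 weeks and 8 at 6 weeks. Cxcl9, a chemokine gene classed as gamma-responsive, had 43 counts in CKp25 and 0 in CK at 2 weeks, and 67 in CKp25 and 0 in CK at 6 weeks. All 17 type I interferon targets were higher at both times, with a median log2 fold change of 5.06 at 2 weeks and 4.12 at 6 weeks. They include the effectors Mx1 (6.33 ± 0.44 and 6.26 ± 0.54) and Oas1a (5.95 ± 0.52 and 5.03 ± 0.49). Within CKp25, 9 of the 17 were lower at 6 than at 2 weeks. Which interferon acted on the GTPase genes was not tested.

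Immunity-related GTPases reach vacuoles with the help of the autophagy conjugation machinery, and Gbp proteins feed inflammasomes. Of 15 vacuole-targeting and autophagy genes, 3 were higher and 1 lower at 2 weeks, and 5 were higher and 2 lower at 6 weeks. Over all tested genes, 11.6% were higher and 7.99% lower at 2 weeks, and 18.1% higher and 15.2% lower at 6 weeks. The median log2 fold change of the 15 was 0.012 at 2 weeks and 0.041 at 6 weeks. The higher ones at 2 weeks were Trim21, an antibody receptor inside the cell (3.45 ± 0.31), Lgals3 (2.58 ± 0.80) and Lgals8 (0.57 ± 0.12), galectins that bind broken vacuoles. Of the conjugation machinery, Atg3, Atg5, Atg7 and Atg12 were called at neither time, with log2 fold changes between -0.21 and 0.11, and Atg16l1 was lower at 6 weeks (-0.26 ± 0.078, adjusted p = 0.0148). Of the proteins it conjugates to membranes, Gabarapl1 was lower at both times (-0.42 ± 0.093 and -0.32 ± 0.093 at 2 and 6 weeks), Gabarap (0.57 ± 0.10) and Map1lc3b (0.24 ± 0.079) were higher at 6 weeks, and Map1lc3a and Gabarapl2 were called at neither time. Of 7 inflammasome genes tested, 6 were higher at each time. Pycard, the inflammasome adaptor, was 2.94 ± 0.37 higher at 2 weeks and 3.80 ± 0.41 at 6 weeks, and the sensor Nlrp3 2.85 ± 0.53 and 1.97 ± 0.46. Casp4, the caspase that senses bacterial lipopolysaccharide, had 41 counts in CKp25 and 3 in CK at 2 weeks, and 49 in CKp25 and 0 in CK at 6 weeks.

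Markers of the cells that could carry these transcripts were summed in the same libraries. The counts below stand beside 11.6% of all tested genes higher and 7.99% lower at 2 weeks. At 6 weeks these shares were 18.1% and 15.2%. Among microglia markers the highest at 2 weeks were Aif1 (2.86 ± 0.25) and Fcrls (2.83 ± 0.19). Monocyte and border macrophage markers were called in 0 of 4 tested cases at 2 weeks and were higher in 4 of 4 at 6 weeks, among them F13a1 (2.05 ± 0.34), Lyve1 (2.02 ± 0.66) and Mrc1 (1.77 ± 0.33). Their summed level over 8 genes was 12.3 to 19.3 CPM in CKp25 and 6.91 to 16.6 CPM in CK at 2 weeks, and 21.6 to 41.8 CPM in CKp25 and 6.47 to 11.2 CPM in CK at 6 weeks. Astrocyte markers were higher in 5 of 10 cases at 2 weeks and 9 of 10 at 6 weeks, led by Gfap (3.10 ± 0.14 at 2 weeks), Aqp4 (1.71 ± 0.14) and Sox9 (0.70 ± 0.15). Endothelial markers were called in 0 of 10 cases at 2 weeks, with a summed level of 230 to 232 CPM in CKp25 and 204 to 246 CPM in CK. At 6 weeks 9 of 10 endothelial markers were higher, among them Cdh5 (0.88 ± 0.19), Pecam1 (0.81 ± 0.17) and Tek (0.80 ± 0.15). Neuron markers were lower in 6 of 10 cases at 2 weeks and 8 of 10 at 6 weeks, led at 2 weeks by Camk2a (-0.60 ± 0.11), Slc17a7 (-0.55 ± 0.10) and Nefl (-0.45 ± 0.10). Oligodendrocyte markers were higher in 1 of 8 cases at 2 weeks (Cldn11, 0.35 ± 0.10) and 7 of 8 at 6 weeks, and choroid plexus markers in 0 of 10 at either time.

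The genes whose pattern over the 12 libraries lay nearest to the mean of the 7 were found by root mean square distance of centred log2 CPM. Irgm1 and Gbp3 lay nearest to that mean, at 0.14 and 0.19 log2 units, and Iigp1 farthest of the 7, at 0.46. The 7 genes are themselves part of that mean. Among all tested genes ranked by this distance, Igtp came at 23, Gbp2 at 33, Irgm2 at 51 and Iigp1 at 64. The 8 nearest genes outside the 7 were Nlrc5 (0.24), Lgals9 (0.25), Epsti1 (0.25), Fam111a (0.29), Pik3ap1 (0.30), Slc15a3 (0.30), F830016B08Rik (0.30) and Ifitm3 (0.31). Epsti1 and Ifitm3 are known interferon-induced genes, Lgals9 encodes galectin-9, and Slc15a3 a lysosomal transporter. These 8 were picked for their pattern in the same libraries, so their log2 fold changes are no separate result. At 2 weeks those changes ran from 3.32 ± 0.20 for Pik3ap1 to 4.88 ± 0.38 for F830016B08Rik. At 6 weeks they ran from 2.79 ± 0.28 for Fam111a to 3.90 ± 0.47 for Epsti1. The distance is a description over libraries that fall into CKp25 and CK clusters and says nothing of shared control.

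Libraries held 5029996 to 6450140 gene counts. Reads that aligned to several places were 6.81 to 14.3% of a library. At 6 weeks they made up 11.5 to 13.9% in CKp25 and 6.86 to 9.52% in CK, while at 2 weeks CKp25_2wk_4518 (6.81%) and CK_2wk_4520 (7.15%) stood apart from the other libraries. Summed choroid plexus markers varied from 23.5 to 2568 CPM within and across groups. With the share of reads aligned to several places as a covariate, all 7 genes were still called higher at both times. The same held with the mean log2 CPM of choroid plexus markers as a covariate, and without the 2 libraries that stood apart.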

How the data were processed

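The RNA values were deposited by the authors as raw read counts per Ensembl gene, not normalized, 3 libraries per group. Bowtie, Picard and HTSeq 0.6.1 and the mouse builds NCBIM37 and mm9 are named in the submitters' processing notes. The table's closing entries show that reads with several alignments, 6.81 to 14.3% of a library, were set aside by the counting, and that reads outside features made up 38.1 to 46.9%. These 5 entries entered neither the library sizes nor any test. Whether the counting used strand is not given in the sources at hand, so antisense partners may share reads. ChIP peak lists were not used here, since no annotation of their build was at hand, and the planned protein comparison was not made.

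IDs were named with the symbol table supplied, which matched 32919 of 37991 rows (86.6%). Members and 17 gene lists were chosen with earlier results of these data known. Of 191 list entries 187 had a row, 1 by synonym. Counts passing filterByExpr (14457 genes) were scaled by TMM factors and fitted with edgeR 4.0.16 (R 4.3.3) quasi-likelihood models, 4 group means over 12 libraries. Benjamini-Hochberg adjusted p under 0.05 over all tested genes counts as called, higher or lower, and SE is that of the log2 fold change. Alternatives were median-ratio factors, no filter, DESeq2 1.42.0, limma-voom 3.58.1, the compared groups alone, covariates, other marker sums as library size, and each library left out. Named genes were the members, every tested family gene, a set of interferon genes, up to 3 called genes with the largest change in each other list, and the 8 most alike. Cx3cr1, Tmem119, Cd3e, the conjugation and conjugated genes and the flanking genes were named after their values were seen. Replicate libraries differed by more than sampling noise, with a chi-square of 1.46 to 8.55 per gene. Values of some listed genes are not reported here.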

Additional observations from a re-analysis of the deposited data

How the results depend on the processing

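All 7 genes kept their direction and their call at both times in 140 of 140 refitted values, from 2.90 to 4.67 at 2 weeks (highest adjusted p = 8.76e-05) and from 1.78 to 4.16 at 6 weeks (highest adjusted p = 0.000434). No paired analysis was made, because the labels name no pairs of libraries. Some CKp25 and CK libraries have neighbouring numbers, such as CKp25_2wk_4890 and CK_2wk_4891. Whether these belong together is not given, and a model with such pairs was not tested.

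The difference of the effect between times was called for 3 of the 7 without the filter and for 2 by DESeq2, and for 80 of all genes in the model above, 693 without the filter, 219 by DESeq2, 295 with the choroid plexus covariate, 301 with the multiple-alignment covariate and 24 to 204 with a library left out. Between times within CKp25, 1 to 3 of the 7 and 839 to 2029 of all genes (1685 with all libraries) were called when a library was left out. At 2 weeks, 1806 to 3056 of all genes were called (2833 with all libraries). Between times within CK, 130 genes were called without the filter and 26 without CK_2wk_4520 and CKp25_2wk_4518. Relative to endothelial or astrocyte instead of microglia markers, 1637 and 8539 of all genes were called at 2 weeks (13827). At 6 weeks Igtp (1.80 and 1.49) and Irgm2 (1.57 and 1.26) were called higher relative to endothelial and astrocyte markers. The direction turned for Gbp2 between times within CKp25 without CKp25_6wk_3940 (0.0070, the range with a library left out being -0.44 to 0.0070), for Igtp (-0.025, range -0.025 to 0.65) and Irgm2 (-0.31, range -0.31 to 0.42) relative to microglia markers at 6 weeks without CK_6wk_4009, and for Gvin1 at 6 weeks by limma (-0.076) and without CKp25_6wk_4008 (-0.98, range -0.98 to 0.69) or CK_6wk_4009 (-0.050), none of them called. The cause was not tested. With 4 to 49 counts per gene in a CK library, shares and folds are limited by depth in CK.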
